A study of Bos taurus with 9 samples.

Results

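Laminin-332 and the hemidesmosome anchor an epithelium to its basement membrane, and 9 of their genes were followed here in bovine uterine gland fragments grown in 3D culture. They were picked by gene symbol: LAMA3 and LAMB3, which encode chains of laminin-332, the laminin-binding integrin subunits ITGA6, ITGB4 and ITGA3, the transmembrane collagen COL17A1, the cytoskeletal linkers DST and PLEC, and the tetraspanin CD151. The files list 20679 genes and hold all 9, and each of the 9 passed the filter on low counts in every comparison.

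Uterine gland fragments are tubular epithelial pieces freed from the endometrium by collagenase and picked by hand. The uteri came from an abattoir and were chosen at the stage of an active corpus luteum. All cultures were fragments embedded in Matrigel, a basement membrane gel that itself contains laminin, in serum-free medium with insulin, transferrin, selenite, ascorbic acid and albumin, and all were sampled on day 5. The control fragments received no EGF and formed cysts (CYST). The fragments given EGF in Matrigel alone formed uterine gland-like structures (MAT), and the third group received EGF in Matrigel mixed with type I collagen (MAT + COL). Each group had 3 libraries, replicates 1 to 3, with animals' ages not given and no doses in the sample labels. The comparison of MAT with CYST asks what EGF changed, and that of MAT + COL with MAT asks what collagen changed.

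In a basement membrane, laminin-332 is a heterotrimeric laminin that lies beneath epithelia. The integrin built from ITGA6 and ITGB4 binds it in the hemidesmosome, where PLEC and the epithelial product of DST tie the receptor to keratin filaments and COL17A1 spans the membrane. The integrin built from ITGA3 and ITGB1 binds the same laminin outside hemidesmosomes, and CD151 associates with both receptors. Simple epithelia such as glands can carry a reduced hemidesmosome that holds the integrin and PLEC without COL17A1 and the epithelial form of DST.

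Libraries held 6568968 to 17948600 counts on genes, with the shallowest in MAT replicate 1. The labels call the cells epithelial. The summed TPM (a transcript level scaled by gene length and library size) of 7 epithelial markers was 10125 to 11149 in CYST, 15992 to 20528 in MAT and 15658 to 21202 in MAT + COL. The summed TPM of 9 stromal fibroblast markers was 2259 to 4878, 1208 to 3798 and 2231 to 4315 in the same order, so RNA of stromal cells was present in every group. Of 4 basal epithelial markers, TP63 and KRT15 were under 1 TPM in every library. In CYST replicate 3 the ferritin gene FTH1 reached 120094 TPM, the highest of any gene in any library. In bulk libraries, fewer cells of a type and less RNA per cell cannot be told apart.

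EGF changed 2 of the 9 genes past the threshold: COL17A1 and LAMA3 rose in MAT over CYST. LAMB3 was called as well by edgeR with the replicate number as a term of the fit (the replicate block), and by DESeq2 without it. The integrin, plakin and tetraspanin genes did not pass the test, although all 9 Log2FC values were above 0. A gene was called at an adjusted p under 0.05 in edgeR's quasi-likelihood test, with Benjamini-Hochberg adjustment over all 12074 genes tested. Of those genes 1.79% were called, and 10.6% with the replicate block. DESeq2 called 1278 of the 12074. The median Log2FC of the 9 genes was 0.61, against 0.01 for all genes tested. The 9 genes were chosen with earlier results of these data known, so such comparisons with all genes are descriptive.

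**Figure D1:**
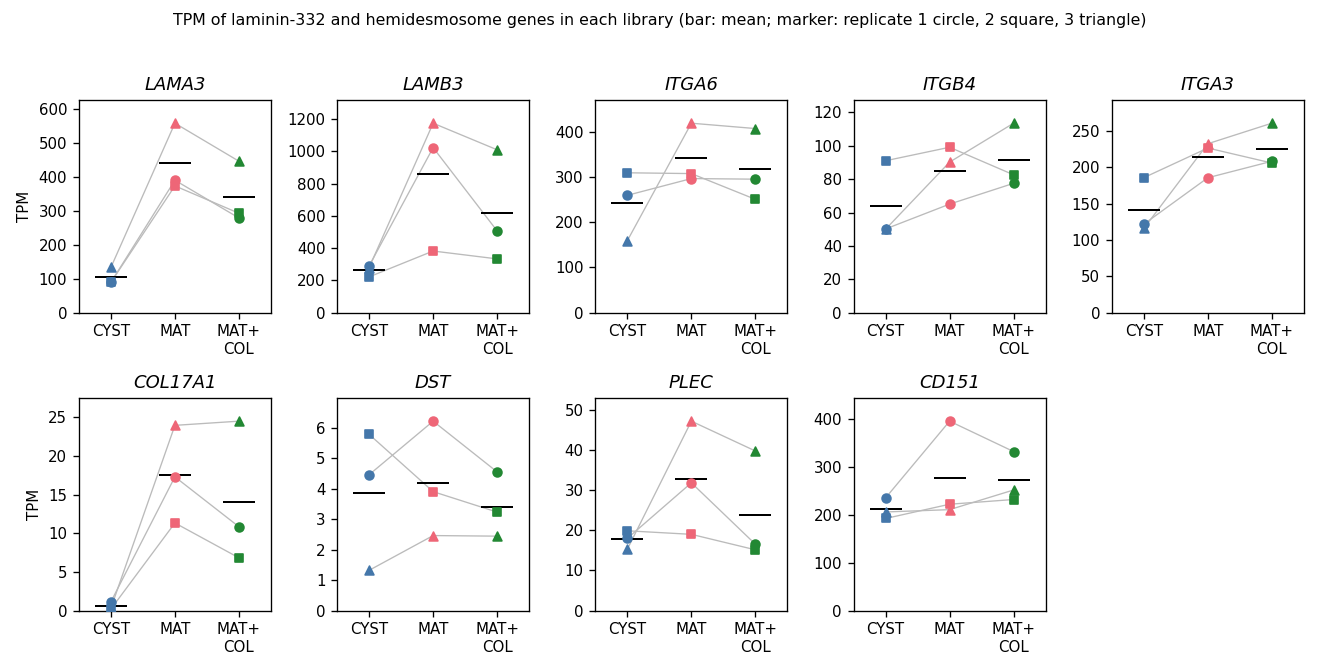
TPM of the 9 genes in each of the 9 libraries, on linear axes that start at 0. Points are libraries, circle, square and triangle stand for replicates 1, 2 and 3, grey lines join the same replicate number, and black bars are group means; LAMA3, LAMB3 and COL17A1 are the genes whose MAT libraries all lie above the CYST libraries.

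LAMA3 (ENSBTAG00000027181) encodes the alpha chain of laminin-332. The gene lies at chr24:32710019-33049146 on the minus strand of ARS-UCD2.0. Its TPM was 88.8, 89.1 and 132.9 in CYST replicates 1 to 3, and 389.1, 372.5 and 556.8 in MAT. Every MAT library lay above every CYST library. Within the same-numbered pairs the log2 TPM ratio was 2.13, 2.06 and 2.07, the tightest agreement among the 9 genes. Log2FC was 2.04 (SE 0.32, 95% interval 1.30 to 2.78, adjusted p = 0.0337 by edgeR) and 2.08 with the replicate block (SE 0.17, adjusted p = 0.00171). When a single library was left out, Log2FC stayed between 1.80 and 2.40, but LAMA3 was called only without CYST replicate 3, and adjusted p otherwise ran from 0.055 to 0.150. With the block and without replicate 1 of both groups, adjusted p was 0.0513. LAMA3 overlaps ANKRD29 on the plus strand, which had a mean TPM of 10.4.

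LAMB3 (ENSBTAG00000016542) encodes the beta chain, at chr16:73664041-73712373 on the plus strand. Its TPM was 290.0, 221.4 and 279.3 in CYST, and 1023, 381.9 and 1175 in MAT. The groups did not overlap, but MAT replicate 2 stood well below the other MAT libraries. Log2FC was 1.68 (SE 0.42, 95% interval 0.72 to 2.65, adjusted p = 0.0752 by edgeR). The blocked fit called it, at a Log2FC of 1.55 (SE 0.24, adjusted p = 0.0125), and so did DESeq2 without a block, at 1.70 (SE 0.40, adjusted p = 0.000832). Limma on log2(TPM + 1) gave 1.56 (adjusted p = 0.0741). LAMB3 was called without MAT replicate 2 (Log2FC 2.04, adjusted p = 0.0465). With the block, it was not called without replicate 1 of both groups (adjusted p = 0.134).

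The balance between the LAMA3 and LAMB3 genes was read as the log2 ratio of their TPM within each library. It was -1.36 ± 0.32 (SD, n = 3) in CYST and -0.84 ± 0.71 in MAT, which gave p = 0.5 in a two-sided exact permutation test. With 3 libraries against 3, 0.1 is the smallest p such a test can give, and over all 42 permutation tests run here the lowest adjusted p was 0.42.

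LAMA3 and LAMB3 also made up most of the transcripts of their chain types. LAMA3 was 82.5%, 82.7% and 91.0% of the summed TPM of the 5 alpha chain genes in CYST, and 96.6%, 97.2% and 96.3% in MAT. LAMB3 was 85.2%, 79.7% and 90.5% of the beta chain TPM in CYST, and 96.7%, 94.2% and 97.5% in MAT. Both shares were higher in each MAT library than in any CYST library (exact permutation p = 0.1 for each, n = 3). LAMA5, the alpha chain of the laminins found under most mature epithelia, had 9.43 ± 3.77 TPM in CYST and 10.9 ± 1.24 in MAT (SD, n = 3).

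**Figure D2:**
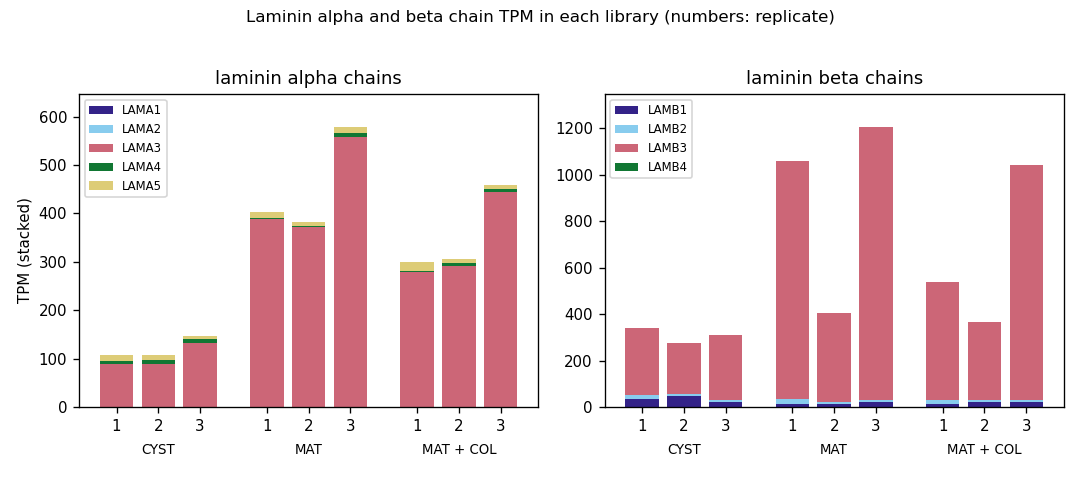
Stacked TPM of the laminin alpha and beta chain genes in each library, with replicates 1 to 3 of CYST, MAT and MAT + COL from left to right. LAMA3 and LAMB3 fill most of each bar, and the LAMA3 part of the alpha bars is taller in every MAT and MAT + COL library than in any CYST library.

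COL17A1 (ENSBTAG00000002430, chr26:24591192-24638064, minus strand) encodes the transmembrane collagen of the hemidesmosome, and it had the largest Log2FC of the 9 genes. It was near the limit of detection in CYST, with 24, 8 and 9 counts in replicates 1 to 3, or 1.13, 0.195 and 0.330 TPM. MAT libraries had 285, 498 and 790 counts, or 17.3, 11.3 and 24.0 TPM. Every MAT library was far above every CYST library. Log2FC was 5.08 (SE 0.66, 95% interval 3.55 to 6.60, adjusted p = 0.0227 by edgeR) and 5.18 (SE 0.46, adjusted p = 0.00207) with the block. The size of the fold rests on the few CYST counts: log2 TPM ratios within the pairs were 3.93, 5.86 and 6.18, and limma on log2(TPM + 1), a scale that understates the change of low genes, gave 3.57. COL17A1 lost the call without CYST replicate 2 (Log2FC 4.63, adjusted p = 0.0702) and without MAT replicate 1 (Log2FC 5.16, adjusted p = 0.0953). It had TPM below 1 in CYST replicates 2 and 3. The study set a minimum TPM of 1 beside a Log2FC beyond 1, and if that minimum is read as holding in each library, COL17A1 did not meet it and LAMA3 was the only one of the 9 to meet all criteria by edgeR without the block. By DESeq2 without the block, LAMB3 met them too. The paper, by its own processing, names both LAMA3 and LAMB3 among the matrix-receptor genes that EGF raised significantly.

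The integrin genes were already abundant without EGF. ITGA6 (ENSBTAG00000017266, chr2:24092591-24179369, minus strand) had 259.5, 309.4 and 159.3 TPM in CYST and 296.6, 307.6 and 419.1 in MAT. ITGB4 (ENSBTAG00000018169, chr19:55840152-55872504, minus strand) had 50.2, 91.1 and 50.0 TPM in CYST and 65.1, 99.1 and 90.2 in MAT. ITGA3 (ENSBTAG00000019498, chr19:36565806-36598451, minus strand) had 121.8, 185.8 and 115.9 TPM in CYST and 185.7, 226.6 and 232.6 in MAT. The ranges of CYST and MAT overlapped for all 3 genes, for ITGA3 by less than 1 TPM, between 185.8 in CYST replicate 2 and 185.7 in MAT replicate 1.

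Log2FC of ITGA6 was 0.52 (SE 0.24, 95% interval -0.04 to 1.07, adjusted p = 0.273). ITGB4 had a Log2FC of 0.42 (SE 0.26, interval -0.18 to 1.03, adjusted p = 0.408), and ITGA3 of 0.61 (SE 0.21, interval 0.13 to 1.10, adjusted p = 0.153). With the block the adjusted p values were 0.218, 0.134 and 0.0560, so no integrin gene passed in either fit. With all 9 libraries and the block, ITGA3 was called in MAT (Log2FC 0.65, adjusted p = 0.0254). The intervals without the block do not exclude a rise of up to 1 on the log2 scale. In the blocked fit on 6 libraries they were -0.05 to 1.07 for ITGA6, 0.05 to 0.82 for ITGB4 and 0.23 to 1.01 for ITGA3. ITGB4 overlaps GALK1 on the plus strand over 608 bases. The strand setting of the counting is not given in the sources used here, so reads of that stretch cannot be assigned.

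ITGA6 exceeded ITGB4 in TPM in every library, with a log2 ratio of 1.94 ± 0.38 (SD, n = 3) in CYST and 2.01 ± 0.33 in MAT (exact permutation p = 1). The other beta subunit, ITGB1, partner of ITGA3, was far more abundant than ITGB4. ITGB4 made up 6.30%, 9.33% and 8.16% of the TPM of ITGB1 and ITGB4 in CYST, and 10.6%, 13.2% and 14.2% in MAT. The shares of the groups did not overlap (exact permutation p = 0.1, n = 3). ITGB1 itself had a Log2FC of -0.32 (SE 0.16, adjusted p = 0.245) with the block.

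The linkers to keratin were lower in level than the receptors. PLEC (ENSBTAG00000011922, chr14:839954-896629, plus strand) had 18.0, 19.9 and 15.3 TPM in CYST and 31.8, 19.0 and 47.2 in MAT. Replicates 1 and 3 were higher with EGF, while replicate 2 was not. Log2FC of PLEC was 0.89 (SE 0.32, adjusted p = 0.170), and 0.78 (SE 0.26, adjusted p = 0.0996) with the block. Without replicate 2 of both groups it was called in the blocked fit (Log2FC 1.15, adjusted p = 0.0291).

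DST (ENSBTAG00000021237, chr23:3521924-3768038, plus strand) had 4.46, 5.78 and 1.32 TPM in CYST and 6.22, 3.90 and 2.46 in MAT. The groups were interleaved, and Log2FC was 0.16 (SE 0.47, adjusted p = 0.884). RefSeq lists 29 transcripts of bovine DST, and gene-level counts do not tell its epithelial form from the others. CD151 (ENSBTAG00000019569, chr29:50536656-50540974, minus strand) had 235.7, 192.6 and 206.2 TPM in CYST and 396.1, 222.4 and 211.1 in MAT. Its highest library was MAT replicate 1, and the other MAT libraries lay within the CYST range. Log2FC of CD151 was 0.36 (SE 0.27, adjusted p = 0.493).

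Non-overlapping groups, with every MAT library above every CYST library, were found for 3 of the 9 genes (LAMA3, LAMB3 and COL17A1) and for 11.9% of all genes tested. No gene of the 9 had the reverse order. The rank order of mean levels differed between the groups. In CYST the mean TPM fell in the order LAMB3, ITGA6, CD151, ITGA3, LAMA3, ITGB4, PLEC, DST and COL17A1, with overlapping ranges for LAMB3 and ITGA6, ITGA6 and CD151, ITGA3 and LAMA3, and LAMA3 and ITGB4. In MAT, LAMA3 stood just behind LAMB3 and ahead of ITGA6, and COL17A1 stood ahead of DST. Neighbours in the MAT order overlapped except ITGA3 and ITGB4, ITGB4 and PLEC, and COL17A1 and DST. The MAT + COL order was that of MAT, with the same exceptions.

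**Figure D3:**
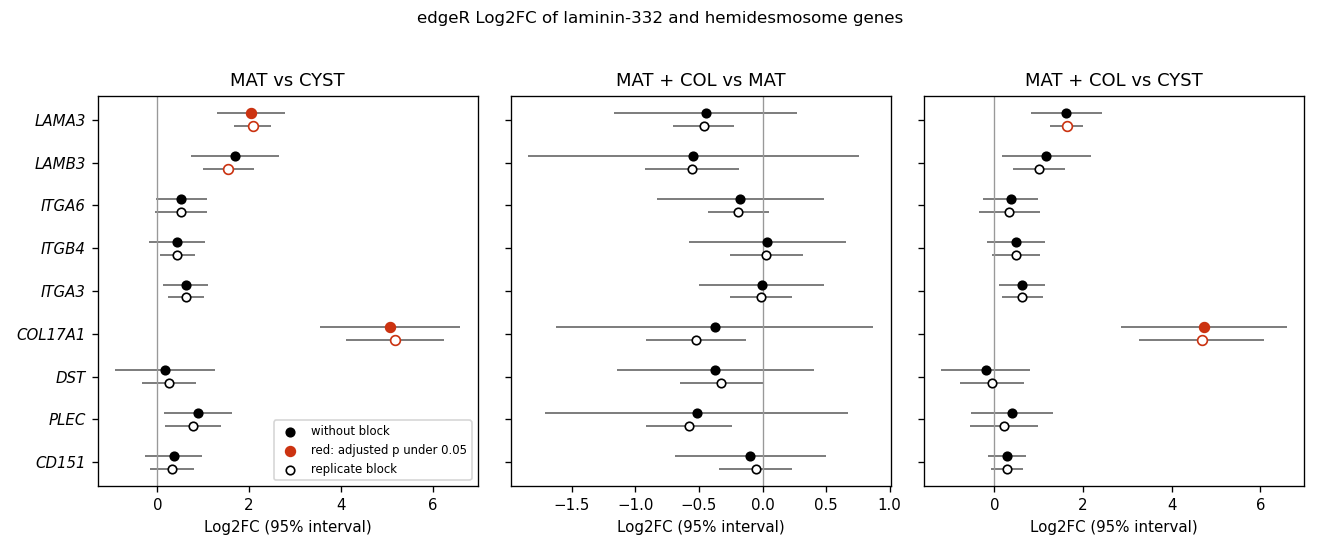
Log2FC with 95% intervals of the 9 genes in the 3 comparisons, with filled points for the fit without the replicate block and open points for the fit with it, each panel on its own linear axis. Red marks an adjusted p under 0.05: COL17A1 and LAMA3 in both fits of MAT against CYST with LAMB3 added by the block, and no gene in MAT + COL against MAT.

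An epithelial marker moved in the same direction. EPCAM, a surface protein of simple epithelia, averaged 419 ± 27.8 TPM in CYST and 690 ± 66.3 in MAT (SD, n = 3), a Log2FC of 0.70 (SE 0.17, adjusted p = 0.0728 by edgeR, or 0.0401 in the blocked fit). Of 7 epithelial markers, 6 had a Log2FC above 0 with the block and 1 below, and 2 were called higher, EPCAM and KRT8. Without the block edgeR called 0 of the 7. Of 9 stromal fibroblast markers, 8 had a Log2FC below 0 with the block (median of the 9 -0.77). Among the 8, DCN was called (Log2FC -1.12, adjusted p = 0.0252). VIM, the only marker above 0, rose (Log2FC 1.05, adjusted p = 0.0125) with the block. None of the 9 was called by edgeR without the block. Of 5 smooth muscle markers, 4 had a Log2FC below 0 with the block and 1 above (median -0.97). TAGLN was called among them (Log2FC -1.57, adjusted p = 0.00719), and the summed TPM of the 5 was 149 to 188 in CYST and 40.5 to 88.6 in MAT. In the same fit no marker of endothelial, immune or ciliated cells was called among the 6, 4 and 3 tested, with an unadjusted p under 0.05 for 1, 1 and 0 of them, and DESeq2 called 1 endothelial marker.

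Each gene was then set against EPCAM in the same library. The log2 ratio of LAMA3 to EPCAM TPM was -2.04 ± 0.41 in CYST and -0.67 ± 0.43 in MAT, a difference of 1.37 (exact permutation p = 0.1, n = 3). The difference for COL17A1 was 4.61 (exact permutation p = 0.1) and for LAMB3 0.84 (exact permutation p = 0.3). For ITGA6, ITGB4, ITGA3, CD151, DST and PLEC the differences were -0.19, -0.27, -0.08, -0.39, -0.45 and 0.08, each smaller than the SD of at least 1 of its groups. The ratios of LAMA3 and COL17A1 to EPCAM were higher in each MAT library than in any CYST library. The Log2FC of each integrin gene was below that of EPCAM. EPCAM is a single marker that was itself higher in MAT, and the part of the epithelial share in any of the 9 genes was not tested.

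Collagen changed none of the 9 genes past the threshold. Without the block no gene of 12470 was called (0%), by edgeR, by DESeq2 or by limma, and none of the 9 had an unadjusted p under 0.05 by any of these tools. The block also called no gene. In the direction of the values, 8 of the 9 Log2FC were below 0, with a median of -0.37 against 0.00 for all genes tested.

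LAMA3 had 278.2, 292.1 and 445.1 TPM in MAT + COL replicates 1 to 3, each below the MAT library of the same number. Its Log2FC with the block was -0.46 (SE 0.11, 95% interval -0.70 to -0.22, unadjusted p = 0.00136, adjusted p = 0.955). LAMB3 had 506.7, 333.1 and 1009.9 TPM, also below MAT in each pair, and its Log2FC was -0.55 (SE 0.17, interval -0.92 to -0.18, unadjusted p = 0.00745, adjusted p = 0.955). PLEC had 16.5, 15.1 and 39.7 TPM and a Log2FC of -0.58 (SE 0.15, interval -0.92 to -0.24, unadjusted p = 0.00322, adjusted p = 0.955). These 3 genes were lower with collagen in each pair. The log2 TPM ratio of LAMA3 was -0.48, -0.35 and -0.32 in pairs 1 to 3, whereas in pairs 2 and 3 that of LAMB3 was -0.20 and -0.22 and that of PLEC -0.33 and -0.25.

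COL17A1 had 10.9, 6.83 and 24.5 TPM, lower than MAT in pairs 1 and 2 and level with it in pair 3, for a Log2FC of -0.52 with the block (SE 0.18, unadjusted p = 0.0139). Together these 4 genes of the 9 had an unadjusted p under 0.05 and a lower level in the blocked fit, against 2.8% of all genes tested. TPM was lower with collagen in every pair for 5 of the 9 genes (LAMA3, LAMB3, ITGA6, DST and PLEC), against 7.95% of all genes tested. None of these values passed the adjustment. Cell type markers moved beside them: in the same fit 8 of 9 stromal fibroblast markers had a Log2FC above 0 (median 0.47, unadjusted p under 0.05 for 6 of the 9), and 6 of 7 epithelial markers one below 0 (median -0.14, unadjusted p under 0.05 for 2 of the 7), with none called. The part of these markers in the lower values was not tested.

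**Figure D4:**
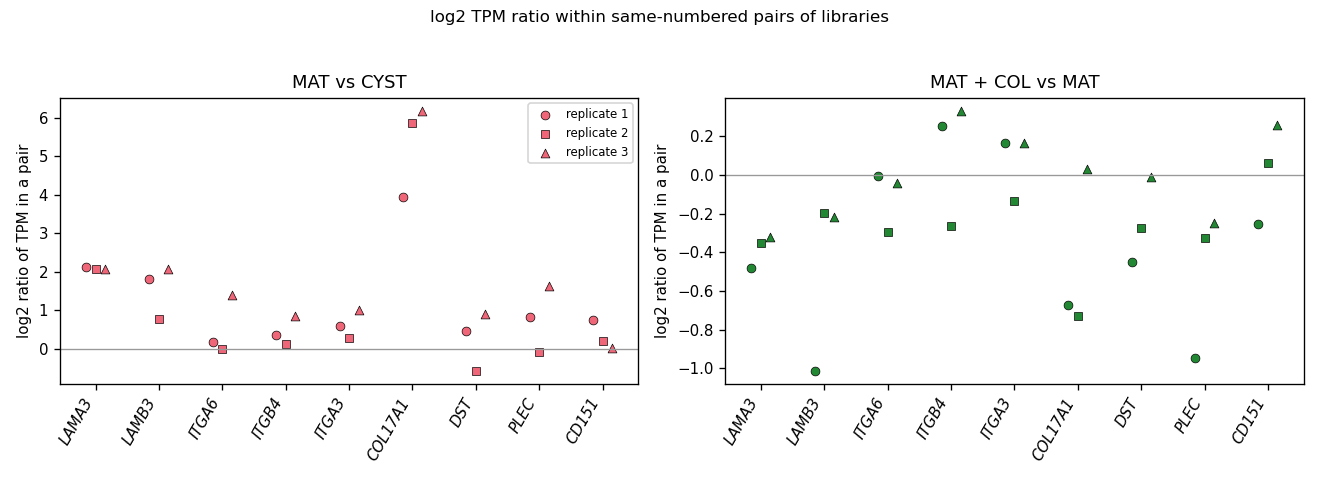
log2 ratio of TPM within same-numbered pairs for the 9 genes, on separate linear axes for MAT over CYST and MAT + COL over MAT; circle, square and triangle are replicates 1, 2 and 3. LAMA3 lies near 2 in each MAT over CYST pair and between -0.48 and -0.32 in the MAT + COL over MAT pairs, where replicate 1 of LAMB3 reaches -1.01.

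Pair 1 carried the largest drops, with log2 TPM ratios of -1.01 for LAMB3 and -0.95 for PLEC, and it holds the shallowest library. In the blocked fit without pair 3, LAMA3 (-0.51, adjusted p = 0.0473), LAMB3 (-0.70, adjusted p = 0.0438) and PLEC (-0.72, adjusted p = 0.0493) were called. The calls among all genes in that fit were not counted, so these calls cannot be set against such a share. Without pair 1 the Log2FC of LAMB3 was -0.26 and that of PLEC -0.33, with adjusted p of 0.999 for both.

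The integrin and tetraspanin genes were close to their MAT levels. ITGA6 had 295.2, 250.6 and 407.3 TPM with collagen and ITGB4 77.5, 82.6 and 113.6. ITGA3 had 208.4, 206.0 and 260.8 TPM and CD151 332.6, 232.2 and 252.2. Log2FC with the block was -0.19 for ITGA6 (95% interval -0.43 to 0.05), 0.03 for ITGB4 (-0.26 to 0.32), -0.01 for ITGA3 (-0.26 to 0.23) and -0.05 for CD151 (-0.34 to 0.24). For these 4 genes the intervals exclude a change of 0.5 in either direction, while the intervals without the block were wider and reached -0.83 for ITGA6. DST had 4.55, 3.23 and 2.44 TPM and a Log2FC of -0.32 (interval -0.65 to 0.00).

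The shares of laminin chains did not separate MAT + COL from MAT. LAMA3 was 93.1%, 95.3% and 96.9% of the alpha chain TPM (exact permutation p = 0.3 against MAT, n = 3), and LAMB3 was 94.1%, 91.2% and 97.0% of the beta chain TPM (exact permutation p = 0.4, n = 3). ITGB4 was 12.7% ± 3.00 (SD, n = 3) of the TPM of ITGB1 and ITGB4, against 12.7% ± 1.86 in MAT (exact permutation p = 1).

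MAT + COL was also compared with CYST, which shares its control libraries with the first comparison and so is not independent of it. COL17A1 was called (Log2FC 4.73, SE 0.80, adjusted p = 0.0416 by edgeR), or 1 of the 9 genes against 1.49% of 12509 genes tested. With the block, LAMA3 was called in addition (Log2FC 1.64, SE 0.16, adjusted p = 0.0157, from 1.62 and 0.0623 without it), against 5.26% of all genes. DESeq2 without the block called COL17A1, LAMA3 (adjusted p = 0.000226) and LAMB3 (adjusted p = 0.0494), among 1524 of all 12509 genes. COL17A1 was not called when any single library was left out (adjusted p 0.0511 to 0.128), with Log2FC between 3.96 and 5.69. With the block it was called without each of the pairs.

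LAMB3 had a Log2FC of 1.17 (SE 0.43, adjusted p = 0.174) in that comparison and 1.01 (SE 0.24, adjusted p = 0.0638) with the block. ITGA3 had 0.63 (SE 0.22, adjusted p = 0.159), and with all 9 libraries and the block 0.65 (adjusted p = 0.0260). Every MAT + COL library was above every CYST library in TPM for LAMA3, LAMB3, ITGA3 and COL17A1, 4 of the 9 genes against 14.3% of all genes. DST was the only one of the 9 with a negative Log2FC, -0.20 (SE 0.43, adjusted p = 0.836).

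The rest of the adhesion machinery was read from 7 lists of genes, with 7 more lists of cell type markers, and 112 genes of these lists passed the filter in MAT against CYST. None was called by edgeR without the block, although 26 had an unadjusted p under 0.05, against 2496 of all 12074 genes tested. The block called 16, DESeq2 16 and limma on log2(TPM + 1) 1, against 1277, 1278 and 239 of all genes tested. The values below are from the blocked fit of MAT against CYST.

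Of 6 other laminin chain genes tested, 1 fell and none rose. LAMB1, the beta chain of the more widespread laminins, fell by 1.07 on the log2 scale (SE 0.26, adjusted p = 0.0421), from 34.4 ± 12.3 to 16.1 ± 3.90 TPM (SD, n = 3). LAMC1, a gamma chain shared by most laminins, had 17.1 ± 6.14 and 20.7 ± 4.22 TPM, and LAMB2, another beta chain, had a Log2FC of 0.24 (SE 0.21, adjusted p = 0.507). LAMB1 and LAMB3 thus moved in opposite directions in this fit, while edgeR without the block called neither. Of 9 stromal fibroblast markers, 8 also had a Log2FC below 0 in this fit and 1 above. The part of stromal RNA in the lower LAMB1 was not tested.

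Of 16 other basement membrane genes, 2 rose and 1 fell. NPNT, which encodes the integrin ligand nephronectin, rose by 0.87 (SE 0.19, adjusted p = 0.0320), and the heparan sulphate proteoglycan gene AGRN by 0.92 (SE 0.22, adjusted p = 0.0390). FBLN1, which encodes the matrix glycoprotein fibulin-1, fell by 0.89 (SE 0.19, adjusted p = 0.0292). None of 9 other laminin receptor genes was called by edgeR in either fit, by DESeq2 or by limma, and 1 had an unadjusted p under 0.05 by each. The 3 highest of them by TPM were RPSA, BCAM and ITGB1, with Log2FC of -0.11, 0.01 and -0.32.

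Of 12 other plakin and keratin genes, 3 rose and 1 fell. EVPL, which encodes envoplakin, a linker of desmosomes, rose by 3.01 (SE 0.30, adjusted p = 0.00320), from 3.27 ± 2.57 to 23.3 ± 8.22 TPM. KRT19 rose by 1.09 (SE 0.24, adjusted p = 0.0318) and KRT8 by 0.88 (SE 0.19, adjusted p = 0.0315), both keratins of simple epithelia. KRT5, a keratin of basal cells that was low throughout, fell by 2.42 (SE 0.59, adjusted p = 0.0413), from 8.45 ± 6.43 to 2.31 ± 2.94 TPM. KRT7, the third of the most abundant genes of the list, had a Log2FC of 0.34 (adjusted p = 0.297).

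**Figure D5:**
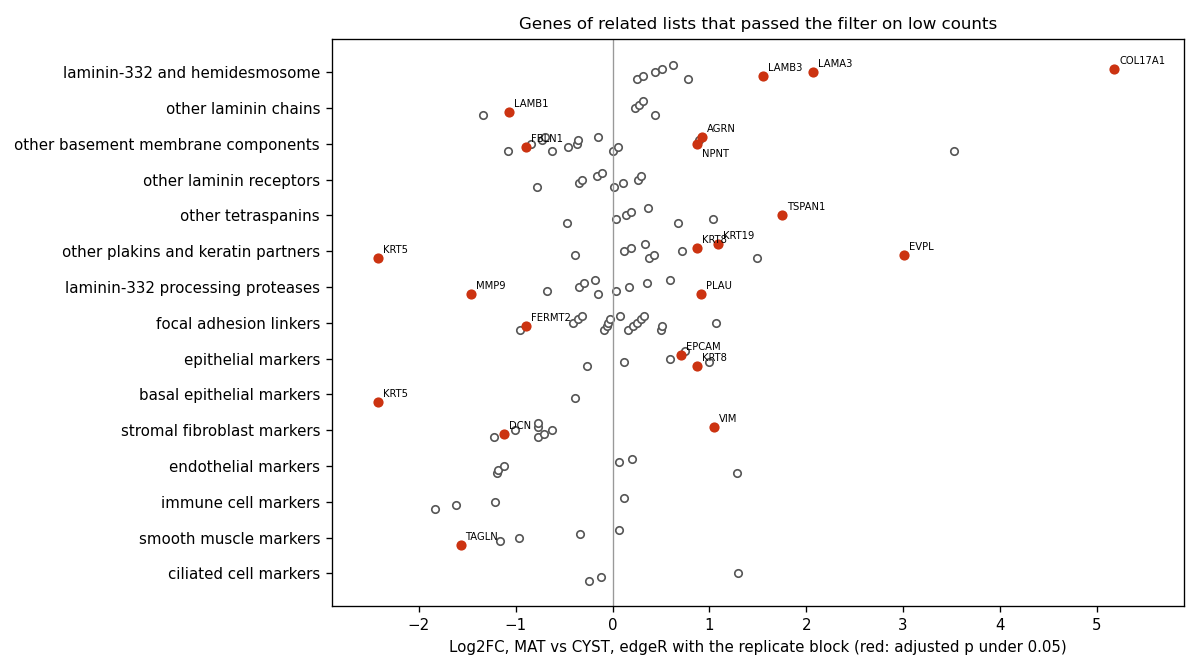
Log2FC of MAT against CYST in the fit with the replicate block for the 9 genes and each tested gene of the other lists, 1 row per list and 1 point per gene, with red for an adjusted p under 0.05. COL17A1 at 5.18 and EVPL at 3.01 have the largest Log2FC among the red points, and the row of other laminin receptors has none.

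Of 8 other tetraspanins, TSPAN1 rose by 1.75 (SE 0.23, adjusted p = 0.00756), whereas CD9 and CD63 had Log2FC of 0.20 and 0.14. Of 11 genes of proteases that can act on laminin-332 or beside it, PLAU (urokinase) rose by 0.91 (SE 0.18, adjusted p = 0.0256) and MMP9 (a gelatinase) fell by 1.46 (SE 0.19, adjusted p = 0.00756). PLAT and ADAM9, the other abundant genes of the list, had Log2FC of -0.18 and 0.59 and were not called. Of 18 focal adhesion linkers, FERMT2, which encodes the integrin activator kindlin-2, fell by 0.90 (SE 0.19, adjusted p = 0.0293), and ILK, ACTN1 and ACTN4, the 3 highest by TPM, had Log2FC of -0.06, 0.16 and 0.21.

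In MAT + COL against CYST with the block, TSPAN1 (1.92), EVPL (2.92), KRT19 (1.01), PLAU (0.80) and MMP9 (-1.01) were called. These were 5 of 112, against 5.26% of all genes tested. With collagen against MAT, none of 113 was called by edgeR in either fit, by DESeq2 or by limma. An unadjusted p under 0.05 was found for 15 of them in the blocked fit, against 618 of all 12470 genes tested, and for 0 otherwise.

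The genes most like LAMA3 across all 9 libraries, by Pearson correlation of log2 CPM (counts scaled to library size), were ITGB7 (0.991), ENSBTAG00000054259 (0.990), PLCD1 (0.989), SYT17 (0.988) and CBLC (0.984). ITGB7, an integrin beta subunit, had a mean TPM of 0.896 in CYST, 18.6 in MAT and 13.5 in MAT + COL. For LAMB3 they were RNF10 (0.985), NPDC1 (0.984), IFNAR2 (0.982), BRD3 (0.981) and WNT9A (0.973). WNT9A had a mean TPM of 0.0 in CYST and 1.23 in MAT, and ENSBTAG00000054259 had 0.115 and 1.92, so both were near the floor in CYST. Among the 9 genes themselves, LAMA3 correlated most with COL17A1 (0.924), LAMB3 (0.854) and ITGA3 (0.844) and least with DST (-0.18), and LAMB3 most with PLEC (0.887). These correlations describe 9 libraries that share 3 groups and 3 replicate numbers.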

How the data were processed

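Bulk RNA-seq libraries were made with the SMART-Seq HT PLUS kit. After trimming, the authors mapped reads to ARS-UCD2.0 with CLC Genomics Workbench and deposited counts per gene without normalization, and TPM of the same genes. The annotation release and the strand setting are not given in the sources used here. Gene positions are those in the files, and RefSeq transcripts were matched by symbol.

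Counts were tested with edgeR 4.0.16 (R 4.3.3): filterByExpr with a minimum count of 10, TMM, glmQLFit and glmQLFTest on the 6 libraries of a comparison. SE was computed as Log2FC divided by the root of F. Single values per library were compared by exact permutation (scipy 1.17.1). Alternatives were DESeq2 1.42.0, RLE, no filter, limma 3.58.1 on log2(TPM + 1) and log2(TPM + 0.1), all 9 libraries, the study's criteria (Log2FC beyond 1 and a minimum TPM of 1, read here as TPM above 1 in each library), a replicate block, and leaving out libraries. The block without a pair, and the ratios to EPCAM, were added after seeing the data. The fit without the block was tested on simulated data without pairing, which does not cover the blocked fit.

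Replicate numbers come from the titles, and the numbers in the library names differ from them in part. The paper describes the MAT and MAT + COL libraries as grouping by individual but does not say so of CYST. The pairing of CYST thus rests on the titles and on the correlations given next. Deviations from group means correlated within same-numbered pairs by 0.329, 0.437 and 0.396 (MAT, CYST), 0.471, 0.613 and 0.687 (MAT + COL, MAT) and 0.278, 0.350 and 0.347 (MAT + COL, CYST), so the numbers were taken to pair the libraries. If replicates do not come from separate animals, p-values measure technical spread only. The reads carry no molecular identifiers, so counts measure amplified reads.

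The 9 genes and the lists were chosen with earlier results of these data known, and a gene of the lists is not reported here. Genes of a list were named if called with or without the block or among its 3 highest by TPM, and the 5 most correlated with LAMA3 and with LAMB3.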

Additional observations from a re-analysis of the deposited data

How the results depend on the processing

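In MAT against CYST, 2 of the 9 genes were called without the block. The Log2FC and TPM criteria, with TPM above 1 in each library, left 1. The replicate block gave 3, DESeq2 3, all 9 libraries 2, all 9 with the block 4, and limma 2 with either pseudocount. Leaving out a library gave 0 to 2, with 0 without CYST replicate 2 and without MAT replicate 1. The block without a pair gave 1 to 4. Between MAT + COL and CYST 1 was called. The criteria and each left-out library gave 0, the block 2, all 9 libraries 2, all 9 with the block 4, DESeq2 3, limma 2 with either pseudocount, and the block without a pair 2 to 3. Between MAT + COL and MAT 0 were called, except 3 with the block without replicate 3 of both groups. Of all 12074 genes in MAT against CYST, edgeR called 216 without the block and 1277 with it, and DESeq2 1278. Limma called 239 and 211 of them with pseudocounts of 1 and 0.1. Of all 12509 genes in MAT + COL against CYST, the counts were 186, 658, 1524, 183 and 164 in the same order. Counts over all genes are not given here for the other settings. In the fits on the 6 libraries of a comparison the block changed no call among the 9 genes other than those given for LAMB3 and LAMA3. With all 9 libraries it also called ITGA3 in MAT and in MAT + COL against CYST.

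Of the genes of the other lists, 0 were called in MAT against CYST, against 16 with the block, 2 without a filter, 5 with all 9 libraries, 25 with all 9 and the block, 16 by DESeq2, 1 by limma with either pseudocount, and 0 to 2 when a library was left out. In MAT + COL against CYST the counts were 0, then 5, 1, 4, 20 and 17 in the same order, 1 and 2 by limma with pseudocounts of 1 and 0.1, and 0 to 4. The difference in ITGB4 share between MAT and CYST was 4.72 percentage points and 6.76 with CPM in place of TPM.

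Directions turned only for genes that were not called. For MAT + COL against MAT, limma with pseudocounts of 1 and 0.1 gave 0.0644 and 0.0647 for ITGA3 and 0.0221 and 0.0223 for CD151. The blocked fit gave -0.0129 for ITGB4 and 0.112 for CD151 without replicate 1 of both groups, 0.079 for ITGA3 without replicate 2, and -0.0969 for ITGB4 without replicate 3. When a library was left out, ITGA3 ranged from -0.17 to 0.0977, CD151 from -0.24 to 0.22, ITGB4 from -0.20 to 0.19 and ITGA6 from -0.45 to 0.0345. DST ranged from -0.21 to 0.55 in MAT against CYST. For MAT + COL against CYST, DST ranged from -0.57 to 0.164 and PLEC from -0.27 to 0.65. Limma with a pseudocount of 0.1 gave 0.0159 for DST, and the blocked fit gave 0.304 for DST without replicate 2 of both groups, and -0.0700 for ITGA6 and -0.27 for PLEC without replicate 3. The causes were not tested. COL17A1 had few counts in CYST, and the shallowest library was in MAT, but their part in the precision was not tested.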
